A study of Homo sapiens with 12 samples.

Results

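The genes described here are 43 mitosis genes, which act when a cell enters mitosis, separates its chromosomes and divides. They were taken by symbol from a table of 38516 genes, and all 43 were found in it. The rule takes symbols from a fixed list and uses no measured value, although the list was drawn up with earlier results of these data known. RNA was sequenced from KYSE150 and KYSE510, established cell lines of human esophageal squamous cell carcinoma, grown in the same serum-containing medium. Each line had 3 control libraries and 3 libraries from cells in which HCP5, a long non-coding RNA gene, was silenced, which made 12 libraries in 4 groups. The labels name the treatments as control and HCP5 silencing, and the sample titles begin with shc for controls and sh4 for silenced cells, which the labels do not explain. The silencing reagent, its target site and the use of a single clone or a pool of cells are not given in the sources used here. The labels also do not say whether the 3 libraries of a group came from separate cultures, so p-values measure the spread between these libraries, which may be technical.

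Entry into mitosis is driven by the kinase CDK1 bound to cyclin A or cyclin B, with help from the phosphatases of the CDC25 family and the kinases PLK1 and AURKA. Kinetochores then attach the chromosomes to the spindle, the spindle assembly checkpoint holds back CDC20 until attachment is complete, and the anaphase-promoting complex, a ubiquitin ligase, marks securin (PTTG1) and the B cyclins for destruction. The transcripts of most of these genes are low in G1 and peak in G2 and mitosis. Their promoters are known for CCAAT boxes, bound by NF-Y, and for the cell cycle homology region (CHR), a short element through which the DREAM complex represses them in resting cells and the MYB-MuvB complex with FOXM1 activates them later.

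Those elements were looked for in RefSeq promoter windows of GRCh38.p14, which ran from 250 bases before to 50 bases after an annotated start. Of the 43 genes, 37 had a window under their symbol, with 46 windows in all because 5 genes had several. CCAAT, read on both strands, was in 36 of the 46 windows (78.3%), against 34.6% of the 35116 windows of all genes and 35.0% of the windows of genes tested here. A CHR word, TTTGAA or TTTAAA on either strand, was also in 36 windows (78.3%), against 24.0% of all windows and 17.2% of those of tested genes. Both were present in 29 windows (63.0%), against 9.27% of all. The E2F words TTTCCCGC and TTTGGCGC were in 2 windows (4.35%), those of CENPA and NUSAP1, against 2.27% of all. The spacing of the words was also shared. A CHR word began 20 to 40 bases after the start of a CCAAT word in 17 windows (37.0%) of 16 mitosis genes, among them CCNB1, CCNB2, CDC20, PRC1, KIF20A and PTTG1, against 1.18% of all windows. This spacing was looked for after the positions of the words had been seen. The words are letters in a window, and no binding was measured.

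To show the words in place, the stretches upstream of the start are printed for 6 of these genes, up to 160 bases and without any base that an exon of the deposited table covers. CCAAT and CHR words are in capitals, in the direction of the gene, so ATTGG is CCAAT read on the other strand and TTCAAA is TTTGAA read on the other strand.
CENPF: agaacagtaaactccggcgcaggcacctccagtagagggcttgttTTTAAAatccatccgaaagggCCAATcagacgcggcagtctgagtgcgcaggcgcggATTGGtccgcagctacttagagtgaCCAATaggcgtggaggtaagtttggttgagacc
KIF11: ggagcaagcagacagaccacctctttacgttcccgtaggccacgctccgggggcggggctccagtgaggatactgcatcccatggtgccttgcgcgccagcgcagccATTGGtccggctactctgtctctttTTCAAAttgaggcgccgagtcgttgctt
KIF14: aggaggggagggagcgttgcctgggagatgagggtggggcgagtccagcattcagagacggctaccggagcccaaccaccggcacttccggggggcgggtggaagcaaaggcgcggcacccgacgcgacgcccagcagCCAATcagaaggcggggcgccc
MKI67: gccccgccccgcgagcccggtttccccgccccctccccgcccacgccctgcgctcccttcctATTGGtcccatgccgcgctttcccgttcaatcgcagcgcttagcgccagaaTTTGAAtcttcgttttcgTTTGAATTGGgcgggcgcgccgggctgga
INCENP: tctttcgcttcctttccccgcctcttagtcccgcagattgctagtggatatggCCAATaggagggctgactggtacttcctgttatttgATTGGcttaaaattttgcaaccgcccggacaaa
NEK2: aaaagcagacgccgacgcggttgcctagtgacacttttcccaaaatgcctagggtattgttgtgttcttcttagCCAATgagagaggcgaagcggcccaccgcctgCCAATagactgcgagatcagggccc
The CENPF stretch (chr1:214603035-214603194, plus strand) held 3 CCAAT words and 1 CHR word farther upstream. In KIF11 (chr10:92592970-92593129, plus strand) the CCAAT word began at -53 and the CHR word at -28, counted back from the start. KIF14 (chr1:200620752-200620911, minus strand) had 1 CCAAT word close to the start and no CHR word in the stretch. In KIF14 the CHR word of the spaced pair lies outside the printed stretch. In CENPF both words of the spaced pair do, as they lie after the start, at 13 and 41. Only KIF11 therefore shows the spacing of 20 to 40 bases in full. MKI67 (chr10:128126424-128126583, minus strand) had 2 of each, and its last CHR word overlapped its last CCAAT word. INCENP (chr11:62123851-62123972, plus strand) and NEK2 (chr1:211675631-211675761, minus strand) each had 2 CCAAT words and no CHR word in the stretch.

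Library depth ran from 20035025 to 28202422 reads assigned to genes, and every silenced library of KYSE150 was deeper than every control of that line. Mitochondrial genes took 7.49% to 11.5% of reads. HCP5 itself was at 0.745 to 0.786 RPKM in KYSE150 controls and 0.315 to 0.579 in silenced cells, and at 0.914 to 1.85 and 0.505 to 0.951 in KYSE510. RPKM is the number of reads per kilobase of exon, scaled to the depth of the library. All 8 epithelial markers were present, with KRT5 at 205 to 1423 RPKM and TP63 at 14.9 to 24.6. Of 14 fibroblast, immune and endothelial markers, 11 stayed below 0.2 RPKM in every library, and COL1A1 reached 0.800, CDH5 2.03 and CD68 47.1.

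All 43 genes passed the filter on low values, 0.5 RPKM in at least 3 libraries, and none did so through a single group. Their reads per library ran from 181 for CENPA to 38936 for MKI67, the proliferation marker Ki-67. In KYSE150 controls the median of their mean levels was 27.5 RPKM, against 3.31 over the 17823 genes tested, and all 43 lay above that. The lowest was CENPE, a kinesin of the kinetochore, at 3.99 ± 0.842 RPKM (SD, n = 3). The highest was TPX2, which activates AURKA and nucleates spindle microtubules, at 126 ± 4.63 (SD, n = 3). In KYSE510 controls the median was 22.5 RPKM, the lowest gene was CDC25C and the highest was PRC1 at 95.4 ± 17.6 (SD, n = 3). Their summed level was 1479 to 1693 RPKM in the 3 KYSE150 controls and 1019 to 1520 in the 3 KYSE510 controls, so the lines overlapped in this sum. In bulk RNA, fewer cells in G2 and mitosis and less RNA of these genes per cell cannot be told apart.

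After HCP5 silencing few of these genes differed beyond the spread between libraries, and the most, 4 in KYSE150, passed when libraries were paired by number. On the scale log2(RPKM + 0.5), with limma and p-values adjusted by the Benjamini-Hochberg method over all genes tested, 0 of 43 passed 0.05 in KYSE150 (4 at an unadjusted p under 0.05), where 0.499% of all genes tested did. In KYSE510 0 of 43 passed (0 unadjusted), where 0.0393% of all genes did. For the change averaged over both lines 0 passed (2 unadjusted), against 0.539% of all genes, and for the difference in change between lines 0 passed (3 unadjusted), as did 0% of all genes. The control and silenced libraries of a line carry the same numbers and deviated together by number over all genes, and a fit that pairs them narrowed the errors. In KYSE150, however, control 2 correlated more with silenced 1 (0.184) than with silenced 2 (0.147) over all genes. Over the 43 mitosis genes alone the same-number correlations, given as a description, were 0.798, 0.814 and 0.799 in KYSE510 but 0.740, -0.208 and 0.137 in KYSE150, where control 3 with silenced 2 reached 0.472 and control 2 with silenced 1 reached 0.441. With that block, 4 of 43 passed in KYSE150 (10 unadjusted), where 6.70% of all genes did, and 0 in KYSE510 (3 unadjusted), where 0.112% did. The averaged change then passed in 2 genes, against 2.74% of all genes, and the difference between lines in 0, as in 0% of all genes. The unadjusted counts have no share of all genes beside them. The 4 genes that passed with the block in KYSE150 were ANLN, MAD2L1, PLK1 and UBE2C.

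ANLN encodes anillin, a scaffold of the cleavage furrow that links actin, septins and myosin. In RPKM it stood at 105, 114 and 92.2 in KYSE150 controls and 68.9, 67.4 and 71.8 in silenced cells, and all 3 silenced libraries lay below all 3 controls. The mean went from 104 ± 11 to 69.4 ± 2.26 RPKM (SD, n = 3), 66.9% of control. The log2 change was -0.57 (SE 0.12, 95% interval -0.84 to -0.30), and limma gave an adjusted p of 0.0701, or 0.0199 once numbers were paired. In KYSE510 ANLN was at 38.3, 40.6 and 31.7 RPKM in controls and 33.5, 33.8 and 26.0 in silenced cells. The groups overlapped there, but the silenced library was the lower of 3 of 3 same-numbered pairs, as in KYSE150. The KYSE510 change was -0.24 (SE 0.12, limma adjusted p 0.851), and the change averaged over lines was -0.41 (SE 0.09, adjusted p 0.0818, and 0.0198 with the block). The changes of the lines differed by 0.33 (limma adjusted p 0.431). Some unpaired fits also passed ANLN in KYSE150. Without control number 3, the lowest control, its change was -0.65 (limma adjusted p 0.0302). Limma voom on recovered reads gave an adjusted p of 0.0406, and 0.0369 for the averaged change. Of 24 alternative fits of ANLN in KYSE150, 20 did not pass, with limma adjusted p-values up to 0.250.

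MAD2L1 encodes MAD2, the checkpoint protein that sequesters CDC20 at unattached kinetochores. It was at 6.27, 6.34 and 7.25 RPKM in KYSE150 controls and 8.07, 9.37 and 10.3 in silenced cells, so the groups did not overlap. The mean was 6.62 ± 0.547 and then 9.24 ± 1.11 RPKM (SD, n = 3), 140% of control. The log2 change was 0.45 (SE 0.10), for which limma gave an adjusted p of 0.0789 unpaired and 0.0210 paired. After each library was centred on the median of the genes tested, the change was 0.32. Without KYSE150 control number 3 the adjusted p was 0.0334. Of 24 alternative fits of MAD2L1 in KYSE150, 21 did not pass, with limma adjusted p-values up to 0.282. In KYSE510 the values were 8.15, 9.82 and 9.28 in controls and 9.22, 9.94 and 9.80 in silenced cells, a log2 change of 0.09 (SE 0.10, limma adjusted p 0.955). The averaged change of 0.27 had an adjusted p of 0.160, and of 0.0333 with the block.

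PLK1, the Polo-like kinase of mitotic entry and spindle assembly, was at 22.3, 22.1 and 26.4 RPKM in KYSE150 controls and 26.9, 28.2 and 33.6 in silenced cells. These groups did not overlap either, and the log2 change was 0.32 (SE 0.20), for which limma gave an adjusted p of 0.406 unpaired and 0.0369 paired. After centring it was 0.19, and the adjusted p with both centring and the block was 0.151. UBE2C, the ubiquitin-conjugating enzyme that works with the anaphase-promoting complex, was at 45.2, 47.0 and 54.0 RPKM in controls and 53.9, 65.0 and 61.7 in silenced cells, with an overlap between the lowest silenced and the highest control library. Its change was 0.30 (SE 0.17), with limma adjusted p-values of 0.354 unpaired and 0.0452 paired, and 0.17 after centring, with an adjusted p of 0.115 when centred and blocked. In KYSE510 both were slightly lower in silenced cells, by -0.12 for PLK1 and -0.02 for UBE2C. MAD2L1 and PLK1 were the 2 genes with every silenced KYSE150 library above every control, as for 13.7% of all genes tested, and ANLN the 1 gene with every one below, as for 5.47%. No mitosis gene had separated groups in KYSE510, where 5.22% of all genes were separated with silenced higher and 6.87% with silenced lower.

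**Figure D1:**
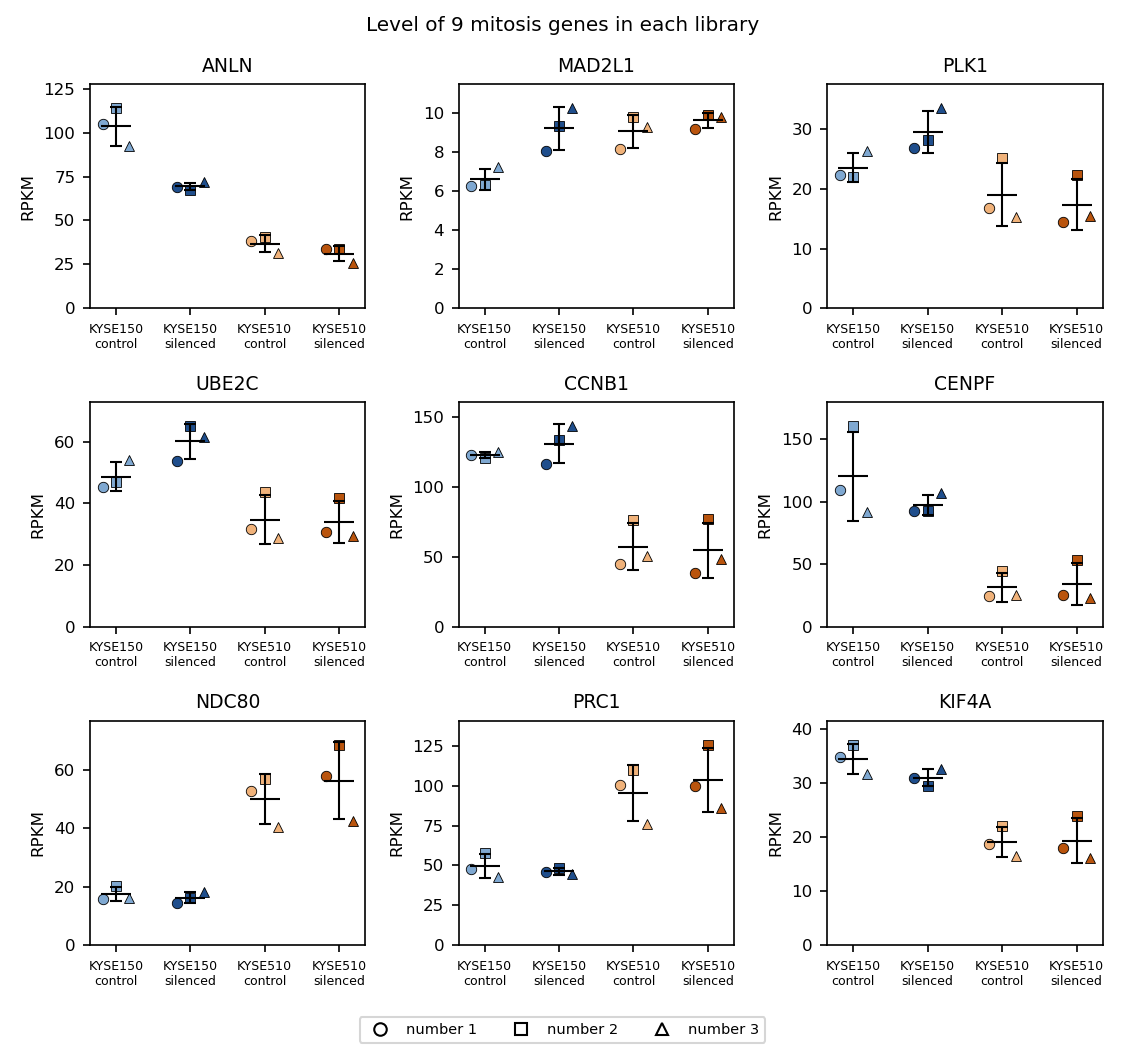
Level in RPKM (vertical axes, from 0) of 9 mitosis genes in each of the 12 libraries, by group; circles, squares and triangles are replicate numbers 1, 2 and 3, and bars are the mean ± SD of 3 libraries. The silenced KYSE150 libraries of ANLN lie at 67.4 to 71.8 RPKM, below controls at 92.2 to 114, and the squares of KYSE510 stand above the circles and triangles for PLK1, UBE2C, CCNB1 and CENPF.

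The other large changes in KYSE150 did not pass in either fit. CENPA, the histone H3 variant that marks centromeres, was at 4.66, 4.62 and 6.49 RPKM in controls and 6.37, 9.39 and 9.24 in silenced cells, and the groups overlapped. The log2 change of CENPA was 0.61 (SE 0.23), the largest positive one of the 43, and limma gave an adjusted p of 0.216 unpaired and 0.0642 paired. BUB3, a checkpoint protein, had a change of 0.30 (adjusted p 0.232). CENPE had a change of -0.33 (SE 0.31, adjusted p 0.598) and CENPF, a large kinetochore and nuclear matrix protein, of -0.26 (SE 0.32, adjusted p 0.693), both within wide intervals. CENPA, BUB3 and MAD2L1 were also the 3 genes for which the lines' changes differed at an unadjusted p under 0.05, by -0.77, -0.41 and -0.36, with adjusted p-values of 0.404, 0.399 and 0.396. Their groups of libraries overlapped in KYSE510, where CENPA was at 3.79, 8.08 and 5.5 RPKM in controls and 4.46, 5.30 and 5.11 in silenced cells.

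In KYSE510 the 3 largest positive changes were those of TOP2A, the type II topoisomerase that untangles chromosomes, at 0.19 (SE 0.23, limma adjusted p 0.955), CDK1 at 0.18 (SE 0.14, adjusted p 0.942) and SPC25, a subunit of the NDC80 complex, at 0.17 (SE 0.17, adjusted p 0.945). Beside ANLN, the largest negative ones were CDC20, the activator of the anaphase-promoting complex, at -0.20 (SE 0.21, adjusted p 0.947), and KIF20A, a kinesin of the central spindle, at -0.18 (SE 0.26, adjusted p 0.964). The intervals say how large a change could have been missed. In KYSE150 the 95% interval lay within a log2 change of 0.5 either way for 16 genes and within 1 for 41 of 43, and in KYSE510 for 22 and for all 43. With numbers paired, the intervals of 37 and 41 genes lay within 0.5.

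As a group the mitosis genes lay close to all genes tested. Their median change in KYSE150 was 0.08, and so was the median of all 17823 genes tested. After each library was centred, both were -0.05, and the split of higher against lower mitosis genes went from 28 and 15 to 12 and 31. In KYSE510 their median was 0.03 against -0.02 for all genes, with 27 higher and 16 lower, and 0.06 against 0.00 after centring, with 32 and 11. By role, all 9 genes of mitotic entry and all 4 of anaphase onset had positive values in KYSE150, with medians of 0.12 and 0.25, but after centring 4 of the 9 and 3 of the 4 did. Kinetochore genes had a median of -0.12 there, and spindle assembly genes of -0.04.

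**Figure D2:**
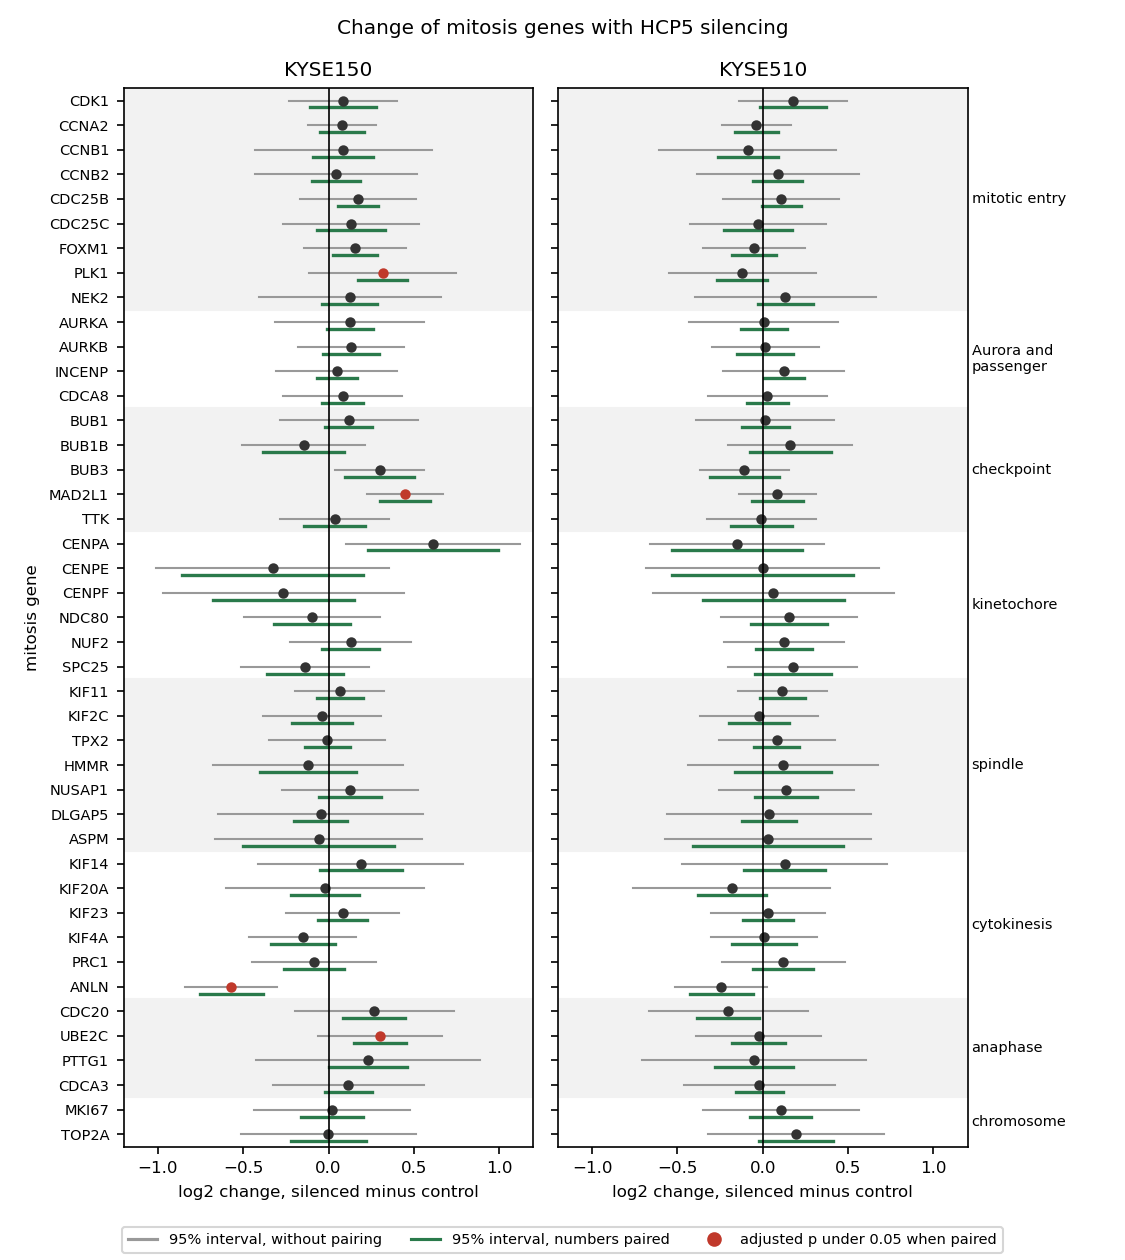
Log2 change of the 43 mitosis genes with HCP5 silencing (horizontal axis, silenced minus control) in KYSE150 and KYSE510, ordered by role; grey and green lines are 95% intervals without and with pairing of replicate numbers, and red points passed an adjusted p of 0.05 with pairing. Red points are ANLN at -0.57 and MAD2L1, PLK1 and UBE2C at 0.45, 0.32 and 0.30, all in KYSE150.

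Related lists were counted in the same way. Of 44 other genes of G2 and mitosis, 0 passed for silencing in either line (8 and 1 at an unadjusted p under 0.05). With the block 5 of 44 passed in KYSE150, where 6.70% of all genes did: DEPDC1, DEPDC1B, CKS2 and MELK rose and LMNB1, a nuclear lamin, fell by 0.24. Of 16 genes of the anaphase-promoting complex and its partners, 1 passed in KYSE150, where 0.499% of all genes did. This was ANAPC13, a small subunit, which rose by 0.69 (SE 0.08, limma adjusted p 0.00864). It was named after its values were seen. With the block 3 of the 16 passed in KYSE150, against 6.70% of all genes, as CDC16 rose by 0.34 (adjusted p 0.0489) and CDC26 fell by 0.33 (adjusted p 0.0362). The ANAPC13 call in KYSE150 was lost after centring (limma adjusted p 0.0529) and in a fit of the 6 KYSE150 libraries alone (0.113). The averaged change of ANAPC13 was 0.61 (SE 0.06, adjusted p 0.00177). Among 18 G1/S genes and 15 tested genes of arrest and the DREAM complex, 0 passed in either line (0 and 5 unadjusted in KYSE150, 0 and 0 in KYSE510). The unadjusted counts of these lists have no share of all genes beside them. With the block 0 of the 18 G1/S genes and 3 of the 15 arrest and DREAM genes passed in KYSE150, against 6.70% of all genes. RBL1, RBBP4 and MDM2 rose there by 0.31, 0.29 and 0.40.

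The 2 cell lines differed far more than the treatments did. Between control cells, 20 of 43 mitosis genes passed (46.5%), fewer than the 62.0% of all genes tested. Of these, 6 were higher in KYSE510, against 28.3% of all genes, and 14 were higher in KYSE150, against 33.7%. Every library of one line lay beyond every library of the other for 8 genes with KYSE510 on top and 13 with KYSE150 on top, against 28.5% and 35.5% of all genes. The median difference, KYSE510 minus KYSE150, was -0.27, with 14 genes positive and 29 negative, against -0.07 for all genes. Of the 20 calls, 10 passed in all 22 alternative fits (ANLN, CCNB1, CENPF, DLGAP5, INCENP, KIF4A, MAD2L1, NDC80, PRC1 and TPX2), and the other 10 were lost in at least 1. With no filter on low values, 14 passed, and the share of all genes that passed then is not given here. The limma adjusted p was 0.0568 for CDC25B, 0.0810 for KIF14, 0.0564 for FOXM1, 0.0705 for HMMR, 0.0818 for CDCA3 and 0.0898 for BUB1B. After centring, CDCA3 was at 0.0534 and BUB1B at 0.123. With quantile normalization they were at 0.0644 and 0.0642, and in the 6 control libraries alone at 0.0509 and 0.0750. Without the trend BUB1B was at 0.0537. Of 22 alternative fits, 11 lost the call of CDCA3 and 13 that of BUB1B.

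Among the genes of mitotic entry, CCNB1, cyclin B1, was the most different. It was at 123.3, 121 and 125 RPKM in KYSE150 controls and 44.9, 76.6 and 50.3 in KYSE510, with a log2 difference of -1.14 (SE 0.24, limma adjusted p 0.00138). Cyclin B2, CCNB2, went the same way, from 28.7, 30.2 and 28.9 to 15.1, 24.9 and 17.0 RPKM, a difference of -0.64 (SE 0.22, adjusted p 0.0224). Its call was lost without KYSE150 control number 2 (0.0555) or KYSE510 control number 1 (0.0898) or 3 (0.0709). CDK1, the partner of both cyclins, was at 17.9, 21.4 and 14.7 RPKM in KYSE150 and 20.3, 21.6 and 16.4 in KYSE510, and did not pass (0.11, SE 0.14, adjusted p 0.509). The ratio of CCNB1 to CDK1, as RPKM, was therefore 5.67 to 8.47 in KYSE150 controls and 2.21 to 3.54 in KYSE510. FOXM1, the transcription factor of this program, was lower in KYSE510 by a log2 difference of -0.38 (SE 0.14, adjusted p 0.0297), and its call was lost without KYSE150 control number 2 (0.0899) or 3 (0.0796) or KYSE510 control number 1 (0.102) or 3 (0.0972). CDC25B, the phosphatase that starts CDK1 activation, was higher in KYSE510, by 0.44 (SE 0.15, adjusted p 0.0286), a call lost without KYSE150 control number 1 (0.112) or KYSE510 control number 2 (0.123). PLK1 differed by -0.33 (SE 0.20, adjusted p 0.166), and without KYSE510 control number 2 by -0.54 with an adjusted p of 0.0217.

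The Aurora kinases parted. AURKA, the centrosomal one, was at 42.9, 46.8 and 45.1 RPKM in KYSE150 and 29.2, 38.1 and 21.0 in KYSE510, a difference of -0.64 (SE 0.20, limma adjusted p 0.0151), and its activator TPX2 differed by -0.72 (SE 0.15, adjusted p 0.00176). The AURKA call was lost without KYSE510 control number 3 (0.0628). AURKB, the kinase of the chromosomal passenger complex, was at 26.0, 29.1 and 30.4 and at 28.5, 33.8 and 22.4 RPKM, with overlapping groups. Its scaffold INCENP was at 70.6, 74.7 and 69.6 in KYSE150 and 46.9, 51.8 and 33.2 in KYSE510, a difference of -0.72 (SE 0.16, adjusted p 0.00225).

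Kinetochore genes held the largest differences in both directions. CENPF was at 109, 160 and 91.2 RPKM in KYSE150 controls and 24.6, 44.5 and 25.0 in KYSE510, 3.83 times as high in KYSE150. The log2 difference was -1.94 (SE 0.32, limma adjusted p 0.000284). NDC80, the subunit that gives the microtubule-binding NDC80 complex its name, was at 15.8, 20.3 and 16.2 RPKM in KYSE150 and 52.9, 57.2 and 40.5 in KYSE510, 2.88 times as high in KYSE510, a difference of 1.49 (SE 0.18, adjusted p 2.52e-05). Its partners in the same 4-subunit complex did not pass. NUF2 differed by -0.14 (SE 0.16, adjusted p 0.482) and SPC25 by -0.28 (SE 0.17, adjusted p 0.184), both picked for comparison after their values were seen. The ratio of NDC80 to NUF2, as RPKM, was 1.14, 1.31 and 1.11 in KYSE150 controls and 4.49, 3.43 and 3.38 in KYSE510, and in silenced cells 0.955 to 1.05 and 3.41 to 4.24. Of the checkpoint genes, MAD2L1 was higher in KYSE510 (0.43, SE 0.10, adjusted p 0.00335) and BUB1B, the kinase-like BUBR1, higher in KYSE150 (-0.41, SE 0.16, adjusted p 0.0465). The BUB1B call was lost without KYSE150 control number 1 (0.10) or 2 (0.145), any KYSE150 silenced library (0.0580 to 0.0589), KYSE510 control number 2 (0.0531) or 3 (0.196) or KYSE510 silenced number 1 (0.0595).

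In the spindle group, DLGAP5, a protein that stabilises kinetochore fibres, was at 15.1, 16.6 and 15.8 RPKM in KYSE150 and 26.6, 48.1 and 26.4 in KYSE510, a difference of 1.01 (SE 0.27, limma adjusted p 0.00718). HMMR and KIF11, the kinesin Eg5, were higher in KYSE150 (-0.69, adjusted p 0.0328, and -0.38, adjusted p 0.0151). The HMMR call was lost without KYSE150 control number 2 (0.112) or KYSE510 control number 1 (0.102) or 3 (0.109), and that of KIF11 without KYSE510 control number 3 (0.0664). Cytokinesis genes split as the kinetochore genes did. PRC1, which bundles the antiparallel microtubules of the central spindle, was at 47.9, 57.8 and 42.8 RPKM in KYSE150 and 100, 110 and 75.9 in KYSE510, a difference of 0.93 (SE 0.16, adjusted p 0.000442). KIF4A, the kinesin that PRC1 recruits, was at 34.8, 37.0 and 31.5 in KYSE150 and 18.7, 22.0 and 16.5 in KYSE510, a difference of -0.84 (SE 0.14, adjusted p 0.000311). The ratio of PRC1 to KIF4A was 1.36 to 1.56 in KYSE150 controls and 4.61 to 5.36 in KYSE510.

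ANLN had the smallest p of the 43, with a difference of -1.48 (SE 0.12, limma adjusted p 1.18e-06) and groups that did not overlap, so the gene with the largest negative value after silencing in KYSE150 also stood 2.81 times as high in that line as in KYSE510. KIF14, a kinesin of the midbody, was higher in KYSE510 by 0.72 (SE 0.27, adjusted p 0.0384), a call lost without KYSE150 control number 1 (0.109) or 3 (0.0738) or KYSE510 control number 2 (0.162). At anaphase, UBE2C and CDCA3 were higher in KYSE150, by -0.50 (adjusted p 0.0207) and -0.52 (adjusted p 0.0408). UBE2C was lost without KYSE150 control number 3 (0.0677) or KYSE510 control number 1 (0.0667) or 3 (0.0878). CDCA3, which targets the kinase WEE1 for destruction, was lost without KYSE150 control number 2 (0.0874) or 3 (0.104), KYSE150 silenced number 2 (0.0505) or 3 (0.0522), KYSE510 control number 1 (0.0890) or 3 (0.167) or KYSE510 silenced number 1 (0.0534). MKI67 was at 96.6, 122.9 and 91.5 RPKM in KYSE150 and 76.7, 99.0 and 61.6 in KYSE510, with overlap and no pass (-0.40, SE 0.21, adjusted p 0.113). Without KYSE510 control number 2 MKI67 differed by -0.58 with an adjusted p of 0.0374. TOP2A differed by 0.11 (SE 0.23, adjusted p 0.690).

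**Figure D3:**
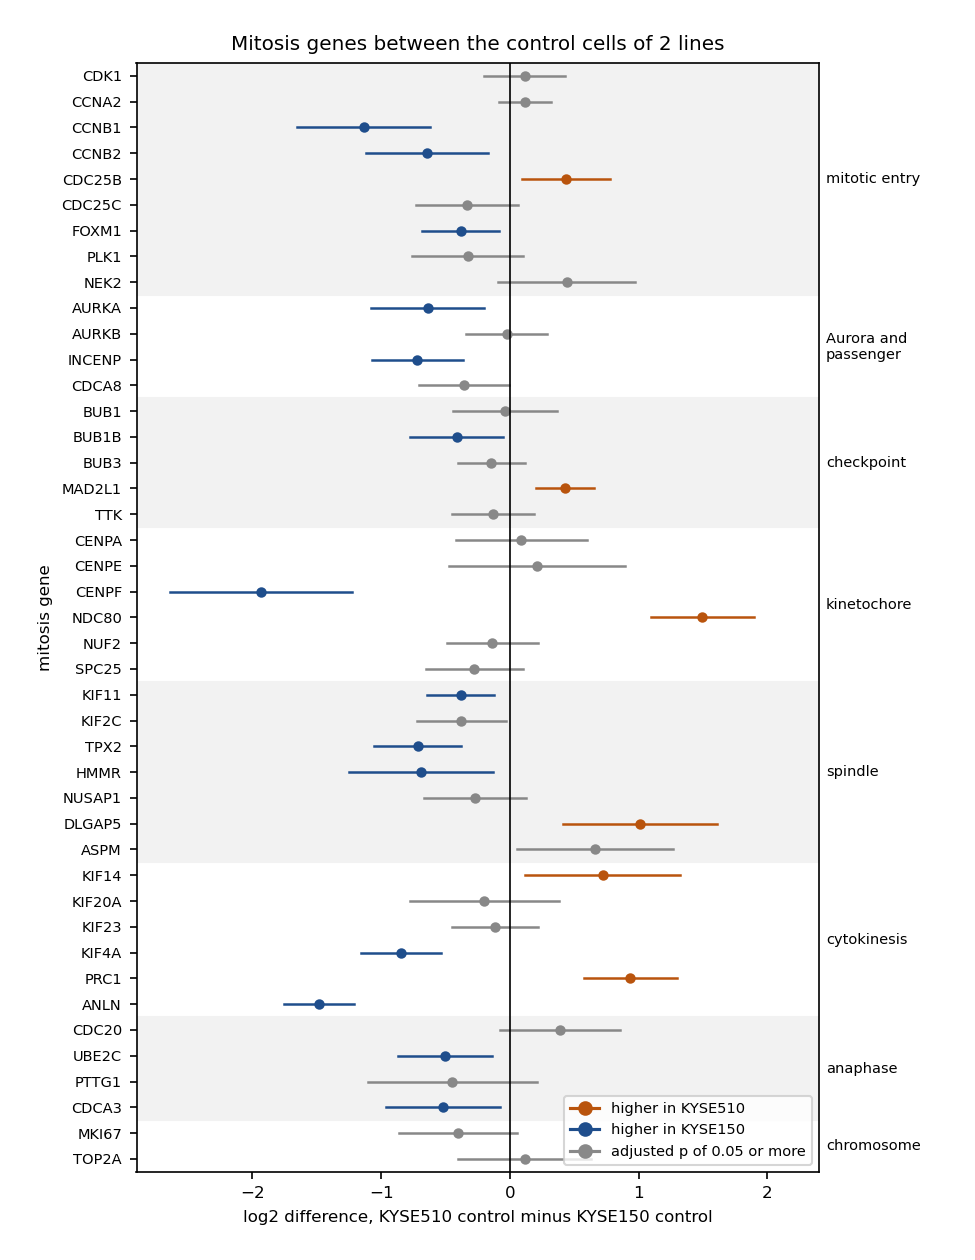
Log2 difference between control cells of the lines (horizontal axis, KYSE510 minus KYSE150) for the 43 mitosis genes by role, with 95% intervals; orange and blue points passed an adjusted p of 0.05. The points span -1.94 for CENPF to 1.49 for NDC80, with 6 in orange and 14 in blue.

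Genes that lie beside these on the chromosome were compared as well. For each mitosis gene the 5 nearest tested genes on each side were taken, and the sign of their median matched that of the gene for 35 of 43 (81.4%), and for 18 of the 20 that passed (90%). Over all tested genes the sign matched for 66.5%, and for 72.6% of those that passed. Without neighbours that are mitosis genes themselves or share exon bases with the gene, it matched for 34 of 43 and 17 of 20. CENPF lies on chromosome 1 (214603195 to 214664588, plus strand), and all 10 neighbours were higher in KYSE150 and passed, with a median of -1.48 beside its own -1.94. NDC80 lies on chromosome 18 (2571511 to 2616635, plus strand), where all 10 neighbours were higher in KYSE510 and 9 passed, with a median of 1.17 beside 1.49. Elsewhere on chromosome 1, the neighbours of KIF14 had a median of 0.76 beside 0.72, and 8 of 10 passed as higher in KYSE510. DLGAP5 on chromosome 14 had neighbours with a median of 0.95 beside 1.01, and 7 of 10 passed as higher in KYSE510. PTTG1 lay nearest to its neighbours (-0.45 for both). INCENP on chromosome 11 lay farthest, at -0.72 against a neighbour median of 0.98, and CDC25B went against its neighbours too (0.44 against -0.35). NUF2 was at -0.14 among neighbours with a median of 0.80. Gene copy number was not measured here, and its part in these differences was not tested.

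Within groups, the genes moved together by library in KYSE510. The median coefficient of variation across the 3 libraries was 21.9% in KYSE510 controls and 22.3% in KYSE510 silenced cells for the mitosis genes, against 13% and 10.8% for all genes. In KYSE150 it was 10.2% and 9.44%, against 14.6% and 12%. All 43 mitosis genes were higher in KYSE510 control number 2 than the mean of controls 1 and 3, and 42 of 43 were so in silenced number 2, where 59.4% and 50.8% of all genes were. For 40 of 43 (93%) the library numbered 2 was the highest of its group in both groups, against 20.9% of all genes. The exceptions were BUB1B, CDK1 and BUB3. The median excess of library 2 was 0.43 in controls and 0.50 in silenced cells on the log2 scale, against 0.04 and 0.00 for all genes.

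Averaged over both groups CENPF had the largest excess, 0.83 in controls and 1.12 in silenced cells, from 24.6 and 25.0 to 44.5 RPKM and from 25.5 and 22.9 to 53.2. DLGAP5 (0.85 and 1.01), KIF20A (0.77 and 0.97), KIF14 (0.88 and 0.81) and PTTG1 (0.85 and 0.83) followed. KIF20A was at 30.7, 49.9 and 27.4 RPKM in controls and 25.5, 48.1 and 23.3 in silenced cells. At the other end stood BUB3 (0.21 and -0.02), MAD2L1 (0.17 and 0.06), CCNA2, the cyclin that acts from S phase on (0.19 and 0.12), CDK1 (0.24 and 0.10) and ANLN (0.22 and 0.19). The 16 genes with the CCAAT and CHR spacing had medians of 0.63 and 0.80, and the 21 matched genes without it 0.39 and 0.46, with overlapping ranges and no test. Library 3 was the lowest in both groups for 28 of 43.

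Other lists were compared by number too. Of 44 other G2 and mitosis genes, 29 were highest in library 2 of both groups, with a median excess of 0.29 in both. So were 7 of 16 genes of the anaphase-promoting complex and its partners, against 20.9% of all genes. Their median excess was only 0.03 in controls and 0.05 in silenced cells, against 0.04 and 0.00 for all genes. Of 18 G1/S genes 0 were highest in library 2 of both groups, and 10 were lowest there, against 14.4% of all genes. The G1/S medians were -0.11 in controls and -0.23 in silenced cells. In library 3 of both groups 10 of the 18 G1/S genes were the highest, against 24.2% of all genes. Some genes outside the G2 and mitosis lists were far lower in library 2, and these were picked after their values were seen. The keratins KRT17 (-1.26 in controls and -1.32 in silenced cells) and KRT6A (-1.36 and -1.93) and the CDK inhibitor gene CDKN1A (-0.61 and -0.80) were among them. Of the 8 epithelial markers, 3 were lowest in library 2 of both groups and 0 highest. In KYSE150 at most 9 of 43 mitosis genes were highest in both groups for any number. Numbers 2 and 3 each had 9 (20.9%), against 10.6% and 35.4% of all genes. Of the 44 other G2 and mitosis genes, 16 and 14 were highest there. In KYSE150 control number 2, 31 of 43 mitosis genes lay above the mean of controls 1 and 3, against 37.6% of all genes. In KYSE150 silenced number 2, 27 of 43 lay above the mean of the others, against 54.2%. Library 1 of KYSE150 was the lowest in both groups for 19 of 43, against 24.0% of all genes. In silenced cells of KYSE150, 36 of 43 lay above the mean of the others in library 3 and 4 of 43 in library 1, against 67.2% and 28.8% of all genes. The depth of the KYSE510 libraries numbered 2 was 25270844 and 21116344 reads, within the range of the others for the control and below the range of its group for the silenced library. The labels do not say what the numbers stand for, and the part of culture density or harvest time was not tested.

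**Figure D4:**
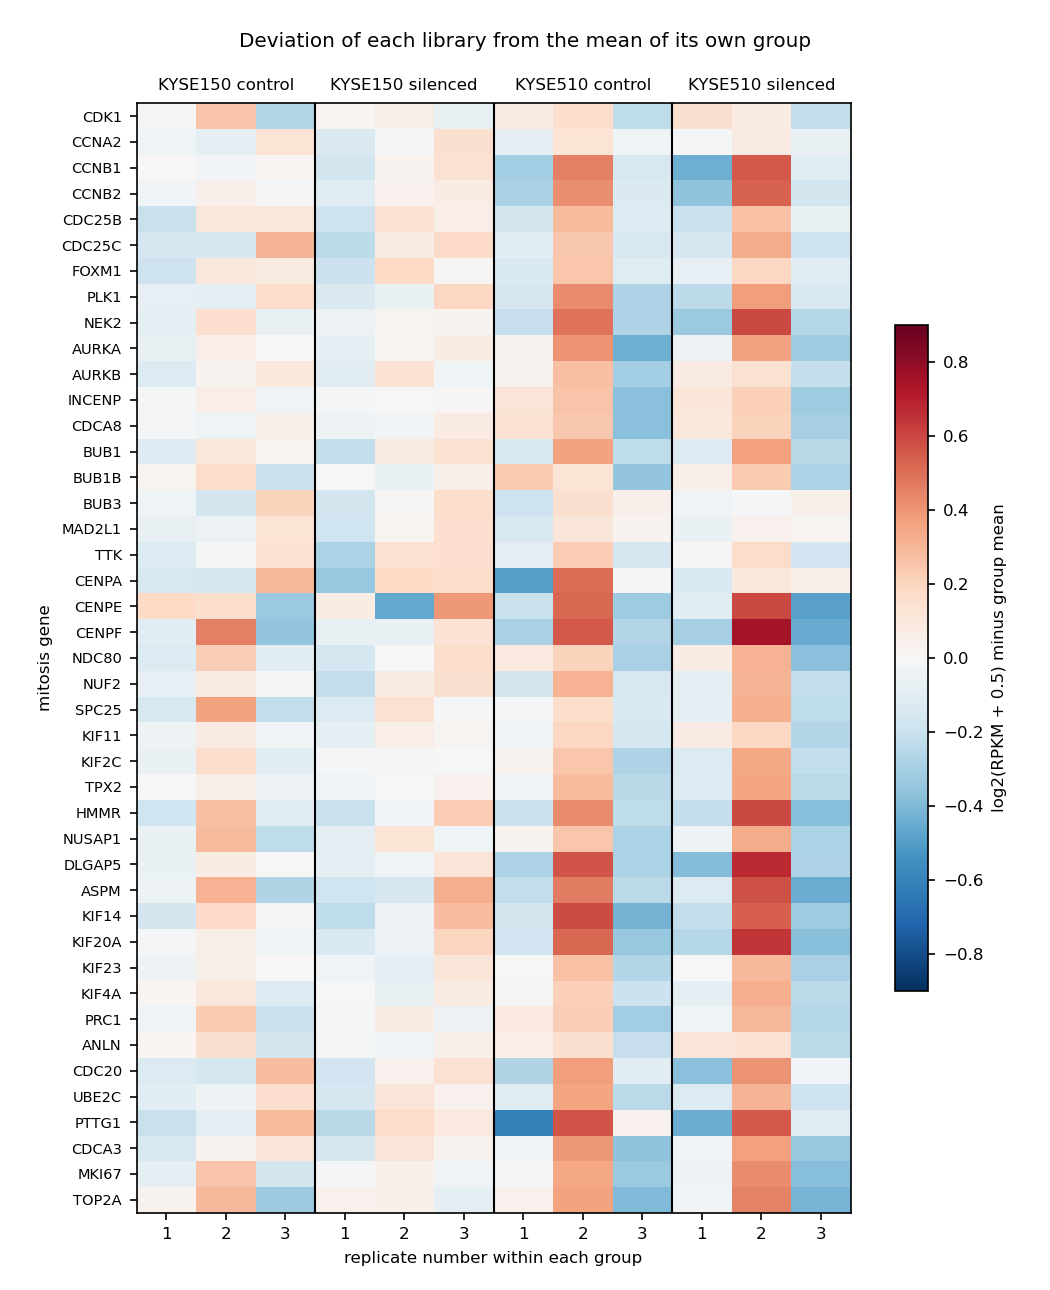
Deviation of each library from the mean of its own group, in log2(RPKM + 0.5), for the 43 mitosis genes (rows, by role) in 12 libraries (columns, by group and replicate number); red is above and blue below the group mean. The 2 columns numbered 2 of KYSE510 are red for nearly every gene, with median excesses over the other 2 libraries of 0.43 and 0.50, while the largest median excess of a KYSE150 library is 0.11.

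**Figure D5:**
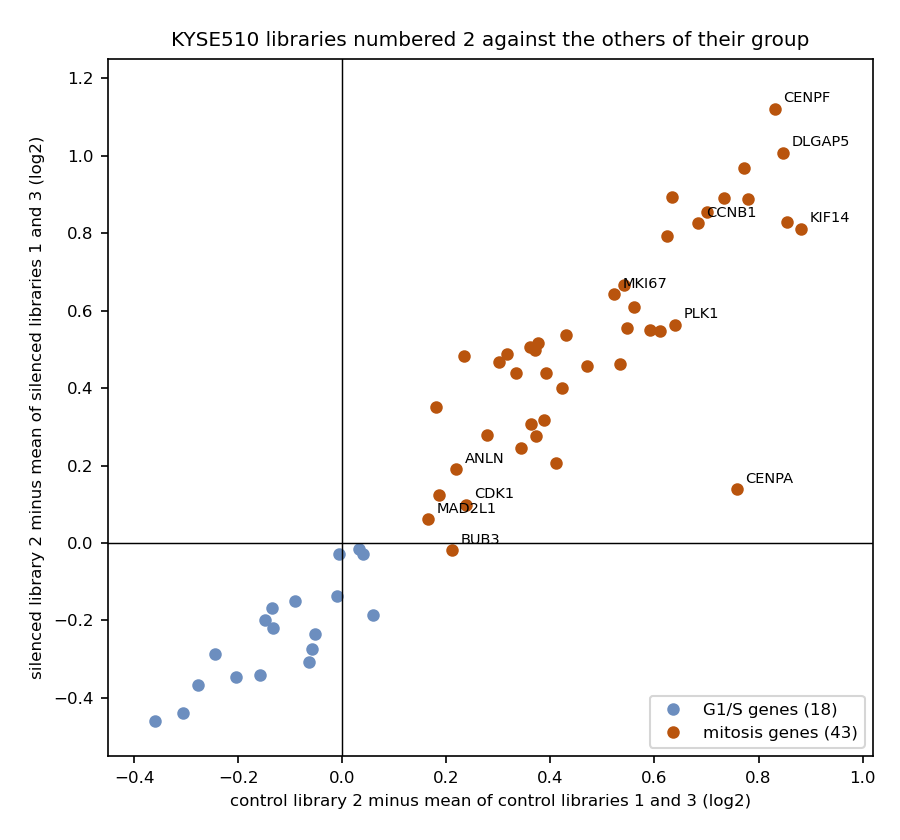
Log2 excess of KYSE510 control number 2 over the mean of controls 1 and 3 (horizontal axis) against the same in silenced cells (vertical axis), for 43 mitosis genes (orange) and 18 G1/S genes (blue). The mitosis genes run up to 0.83 and 1.12 for CENPF, and the G1/S genes lie around or below 0 on both axes.

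This common movement bore on the comparisons. Without both KYSE510 libraries numbered 2, a choice made after the pattern was seen, silencing in KYSE510 still passed in 0 mitosis genes, with a median of 0.03. Leaving out only the control numbered 2 gave a median of 0.21 with 40 of 43 genes higher, and leaving out only the silenced one gave -0.14 with 37 lower, and 0 passed in both. Between control lines, 25 genes passed without them, 4 on the KYSE510 side and 21 on the KYSE150 side, and 18 of the first 20 were among them. Without KYSE510 control number 3, 12 passed. The shares of all genes that passed in these refits are not given here, so the shifts may not be particular to mitosis genes.

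Some of these genes share exon bases with other genes. Per the positions in the table, FOXM1 shares 781 bases (15.9% of its exon bases) with ITFG2 on the opposite strand, PLK1 shares 553 (11.6%) with CTD-2196E14.5 on the opposite strand, and BUB1B shares 457 (10.2%) with the readthrough gene BUB1B-PAK6 on its own strand. PRC1 shares 406 (7.35%) with PRC1-AS1 and ANLN 78 (1.30%) with KIAA0895, both on the opposite strand. The use of strand in counting is not given in the sources used here, so reads from these stretches could not be assigned with certainty. Listed pseudogenes stayed below 0.3 RPKM except CDC20P1, which reached 2.95 beside 34.4 to 67.2 RPKM for CDC20.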

How the data were processed

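The deposited table gave exon positions, strand, summed exon length and 12 columns of RPKM, and GRCh38, HISAT2 and DESeq are named, per the submitters' processing notes, without a role. The position columns are those featureCounts writes, per the file headers. Versions, the annotation release, filters and strand use are not given in the sources used here. Multiplied by length, the authors' RPKM came in whole steps in each library for 100% of values, so reads were recovered, and depth was 20035025 to 28202422. Mitosis genes had 181 to 38936 reads in a library, and counting error alone was not separated from the spread of 3 libraries. Values were analysed as log2(RPKM + 0.5), which understates changes of low genes, with limma 3.58.1 in R 4.3.3 (4 group means, 8 residual degrees of freedom, mean-variance trend, two-sided tests, Benjamini-Hochberg adjustment, threshold 0.05) on 17823 genes with at least 0.5 RPKM in at least 3 libraries. The unpaired fit was tested on simulated data with noise independent between genes and libraries. The paired fit, and movement shared by library number, were not simulated.

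Replicate numbers come from the last digit of the titles. Deviations from group means correlated at 0.147 to 0.415 between same-numbered control and silenced libraries in 6 of 6 pairs. Between other numbers they correlated at -0.385 to 0.184. KYSE150 control 2 correlated more with silenced 1 (0.184) than with silenced 2 (0.147). Deviations cancel within a group, which pushes the other-number values down, so those values are not separate evidence. The numbers were taken as pairs within a line, a choice that rests on these same data. The paired fit has 4 residual degrees of freedom and no value for the comparison of lines. Alternatives were pseudocounts of 0.1 and 1, no filter, a filter of 1 RPKM, centring, quantile normalization, no trend, 6 libraries alone, limma voom on recovered reads, and each library left out. Members, roles, lists and alternatives were chosen with earlier results of these data known. Genes were named by a rule: those past 0.05 for silencing in either fit, the 3 largest changes each way in each line, the 5 largest called differences each way between lines, CDK1, CCNB1, PLK1, FOXM1, MKI67 and TOP2A, and the genes nearest to and farthest from their neighbours. Between lines, every mitosis gene past 0.05 was named as well, and so were the genes of the related lists that passed for silencing in KYSE150. NUF2, SPC25 and some genes compared by library number were picked after their values were seen. Other genes were named as examples of their group or of the pattern described. Promoters are from RefSeq.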

Additional observations from a re-analysis of the deposited data

How the results depend on the processing

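The median of the mitosis genes in KYSE150 turned from 0.08 to -0.05 with centring, and that in KYSE510, 0.03, ran from -0.14 to 0.21 with 1 library left out. Between lines it stayed negative, and no alternative reversed a called difference. The count for silencing in KYSE150, 0 in the fit reported, was 4 with the replicate block, 2 with centring and the block together, and 1 with voom on recovered reads. For the averaged change, also 0, it was 2 with the block, 2 with centring and the block, and 1 with voom. Counts without one replicate ran from 0 to 2 in KYSE150 (2 without KYSE150 control number 3) and were 0 for KYSE510, the averaged change and the difference between lines. For control lines they ran from 12 to 23 around 20, and no alternative outside those that left out a replicate moved that count by over 1.5 times. The shares of all genes in these fits are not given here. Among the genes named for their values, signs turned for 4 results that had not passed, and the cause was not tested. Over all 43 genes more turned in KYSE510, where 27 were higher with all libraries, 40 without control 2 and 6 without silenced 2. In KYSE510, KIF20A, at -0.18, ran from -0.50 (without silenced 2) to 0.075 (without control 2), with 0.011 without silenced 3. TOP2A, at 0.19, ran from -0.028 (without silenced 2) to 0.40, with -0.0039 without control 3. Between lines, CDK1, at 0.11, ran from -0.018 (without KYSE150 control 3) to 0.24. TOP2A, at 0.11, ran from -0.066 (without KYSE510 control 2, alone or with silenced 2) to 0.31, with -0.049 without KYSE150 control 3. With 3 libraries a group, the 95% interval lay within a log2 change of 0.5 for 16 of 43 genes in KYSE150 and 22 in KYSE510. For the others it reached beyond 0.5, so changes larger than that could be missed. Smaller changes could be missed for any of the 43.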
